A study of Mus musculus with 26 samples.

Results

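The 10 genes described here encode the ligands of the transforming growth factor β (TGF-β) pathway, the latent TGF-β binding proteins (LTBPs) and the receptors. They are Tgfb1, Tgfb2 and Tgfb3, then Ltbp1, Ltbp2, Ltbp3 and Ltbp4, then Tgfbr1, Tgfbr2 and Tgfbr3. They were taken by gene name from a matrix of 56941 genes, and all 10 were among the 15357 genes abundant enough to be tested. The data are RNA sequencing counts of the left ventricle from 26 mice, in a series whose title asks about sex-specific effects of B55α, the regulatory subunit of protein phosphatase 2A encoded by Ppp2r2a. The mice carried floxed Ppp2r2a alleles (Ppp2r2aL/L) with an aMHC-Cre transgene, which is active in heart muscle cells (cKO, aMHC-CreTg/0-Ppp2r2aL/L), or without it (Ctrl, aMHC-Cre0/0-Ppp2r2aL/L). The groups held 6 males and 6 females for Ctrl and 7 males and 7 females for cKO, aged 12 to 16 weeks, and all of them had received 2 weeks of saline from a minipump. The strain label is C57BL/6N for the mice, while the design text gives a mixed background with floxed mice from C57BL6/N and Cre mice from FVB. A group carrying Cre on unfloxed alleles was not analysed here, so effects of the Cre transgene, of FVB alleles and of B55α loss cannot be told apart.

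Library totals ranged from 14.4 to 30.9 in units of 1e6 counts. Ppp2r2a, the targeted gene, was expressed in males at 37.4 ± 10.2 counts per 1e6 counts (CPM; SD, n = 6) without Cre and 14.1 ± 1.8 (SD, n = 7) with it. In females these values were 40.4 ± 3.59 (SD, n = 6) and 13.4 ± 2.07 (SD, n = 7), and the genotypes overlapped in neither sex. Its lowest control values, 24.9 and 24.1 CPM, were those of Ctrl males 3 and 6. All 8 cardiomyocyte markers were abundant. Of the 3 atrial markers, Myl7 and Sln reached at most 3 counts in any library and Myl4 reached 49.

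TGF-β is secreted in a latent form, held by its own propeptide. LTBPs bind this latent complex and store it in the extracellular matrix, from which integrins, proteases and thrombospondin release the ligand. The freed ligand joins the type II receptor to the type I receptor, which phosphorylates SMAD proteins that enter the nucleus. In the heart the pathway is known for turning fibroblasts into matrix-producing myofibroblasts. LTBP-1 and LTBP-3 carry all TGF-β isoforms, LTBP-4 is known mainly for TGF-β1 and for elastic fibres, and LTBP-2 lies on microfibrils without binding latent TGF-β.

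The genes whose transcripts differed by genotype or sex included Ltbp2, Ltbp3 and Ltbp4, and the 250 bases before a transcription start of each are shown for what their promoters share and do not share. The sequences are from RefSeq (GRCm38.p6, a different build from that of the counts), written 5′ to 3′ on the gene's strand, and Ltbp4 is shown at the most upstream of its 3 listed starts. Capitals mark the SMAD motif CAGAC, the GC box GGGCGG and the TATA motif TATAAA, searched on both strands.
Ltbp2, chr12:84876492-84876741, minus strand: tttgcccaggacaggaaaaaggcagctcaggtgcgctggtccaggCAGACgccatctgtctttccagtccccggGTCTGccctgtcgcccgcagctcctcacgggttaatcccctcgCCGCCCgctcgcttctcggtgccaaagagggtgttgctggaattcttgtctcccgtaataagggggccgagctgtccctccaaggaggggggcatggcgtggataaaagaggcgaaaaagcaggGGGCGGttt
Ltbp3, chr19:5740650-5740899, plus strand: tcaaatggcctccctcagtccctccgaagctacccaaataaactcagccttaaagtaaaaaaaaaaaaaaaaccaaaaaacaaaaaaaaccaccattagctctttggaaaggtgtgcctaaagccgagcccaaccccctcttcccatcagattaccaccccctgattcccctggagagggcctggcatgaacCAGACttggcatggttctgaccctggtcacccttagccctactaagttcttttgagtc
Ltbp4, chr7:27337613-27337862, minus strand: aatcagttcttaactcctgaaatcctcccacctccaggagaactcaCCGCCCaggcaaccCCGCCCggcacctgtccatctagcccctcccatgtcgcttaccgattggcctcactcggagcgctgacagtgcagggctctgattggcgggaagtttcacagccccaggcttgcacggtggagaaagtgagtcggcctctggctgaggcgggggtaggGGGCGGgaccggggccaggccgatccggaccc
Ltbp2 held 2 matches to CAGAC and 2 to GGGCGG, Ltbp3 held 1 match to CAGAC and none to GGGCGG, and Ltbp4 held 3 matches to GGGCGG and none to CAGAC. The other 2 listed starts of Ltbp4 held 5 and 7 matches to GGGCGG in overlapping windows. No match to TATAAA lay in these 3 windows. CAGAC occurred in 42.2% of 32851 promoter windows of the same length, GGGCGG in 32.7% and TATAAA in 12.4%. The GC content was 61.6% for Ltbp2, 47.2% for Ltbp3 and 64.4% for Ltbp4. The matches describe letters in these windows and show no binding. Of the 10 genes, 8 had an entry in the promoter table (not Tgfb3 and Tgfbr3).

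Levels were compared between genes per kilobase of exon, since longer transcripts collect more reads. Ltbp4 was by far the most abundant, at 67.0 ± 9.57 CPM per kb over the 26 mice (SD, n = 26), and made up 85.6% of the summed LTBP level. Ltbp2 was the lowest of the 10, at 0.567 ± 0.464 CPM per kb (SD, n = 26). Among the ligands Tgfb1 took 47.0% of the summed level per kb, Tgfb3 40.0% and Tgfb2 12.9%. All shares here used the union of exons as the length. With the longest transcript instead, Tgfb1 lay further above the other ligands, at 11.6 CPM per kb against 5.03 for Tgfb3 and 1.83 for Tgfb2. Among the receptors Tgfbr3, encoding the co-receptor betaglycan, took 44.3%, Tgfbr2, the type II receptor, 39.3%, and Tgfbr1, the type I receptor, 16.4%. In Ctrl males alone the first 2 changed places, with Tgfbr2 at 42.6% and Tgfbr3 at 40.9%.

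Between these extremes the order depended on the length used. With the union of exons the levels of Tgfbr3 (7.03 CPM per kb), Tgfbr2 (6.18), Tgfb1 (5.93), Ltbp3 (5.57), Tgfb3 (5.03) and Ltbp1 (5.00) followed each other closely, and neighbours in this order differed by less than the larger of their SDs between mice. With the longest transcript, a choice made after seeing the data, Tgfb1 came second at 11.6 CPM per kb, then Ltbp3 (8.82), Ltbp1 (8.02), Tgfbr3 (7.56), Tgfbr2 (6.26) and Tgfb3 (5.03). Tgfbr1 (2.57 by the union, 2.92 by the longest transcript), Tgfb2 (1.62 and 1.83) and Ltbp2 (0.567 and 0.685) held the last places by both lengths.

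**Figure D1:**
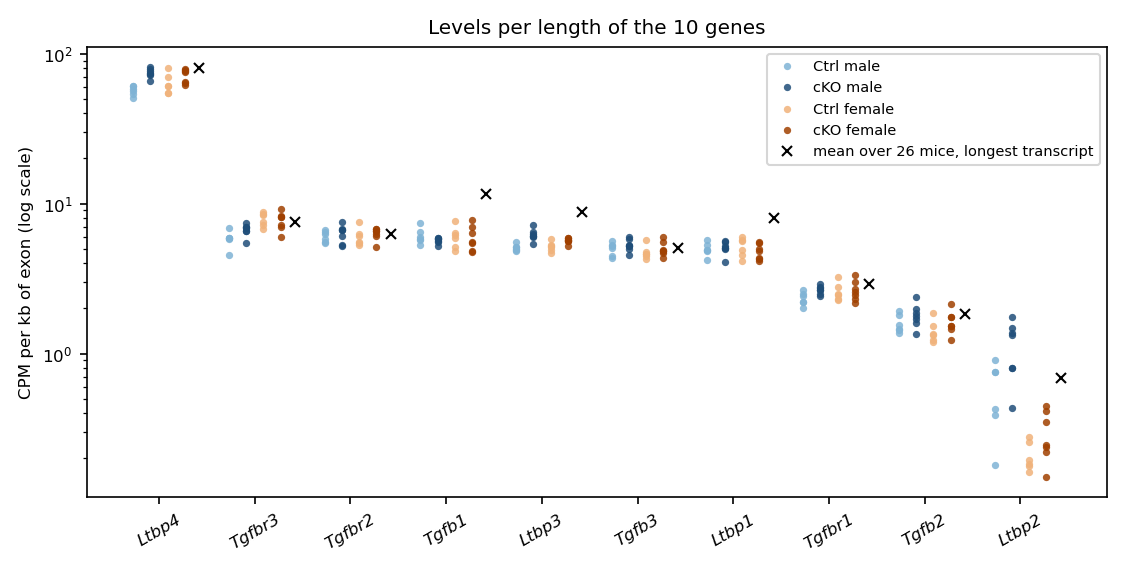
Level of each of the 10 genes in CPM per kb of exon on a log scale. Points are the 26 mice, coloured by group, with the union of exons as the length. Crosses are the means over 26 mice with the longest transcript as the length. Ltbp4 lies far above the others and Ltbp2 has the lowest mean by both lengths.

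The LTBP genes held the genotype differences in males. Ltbp3 and Ltbp4 rose in cKO males, by 1.22-fold and 1.31-fold, so 2 of the 10 genes were called higher and 0 lower at an adjusted p under 0.05. Of all genes tested, 0.182% were called higher and 0.26% lower in males. At an unadjusted p under 0.05, 5 of the 10 were higher, namely Ltbp2, Ltbp3, Ltbp4, Tgfbr1 and Tgfbr3, against 6.11% of all genes. The median log2 fold change was 0.187 over the 10 genes and 0.001 over all genes. With an offset for transcript length and GC content, the median of the 10 was 0.152 and 0 of the 10 were called.

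Ltbp4 in Ctrl males ranged from 328.7 CPM in the lowest mouse, through a median of 369.4, to 395.4 in the highest. In cKO males the lowest mouse was at 426.0 CPM, the median at 483.7 and the highest at 522.7. Every cKO male lay above every Ctrl male, which held in the same direction for 0.41% of all genes tested. The change on the log2 scale was 0.39 (SE 0.08, 95% interval 0.23 to 0.554, edgeR adjusted p = 0.0272).

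Ltbp3 in Ctrl males had its lowest mouse at 43.6 CPM, its median at 46.2 and its highest at 50.6. In cKO males the lowest mouse was at 48.5 CPM, the median at 55.5 and the highest at 65.8. All 7 cKO males were above the Ctrl mean, and a single cKO male (number 3) fell within the range of the Ctrl males. The change on the log2 scale was 0.28 (SE 0.06, 95% interval 0.171 to 0.398, edgeR adjusted p = 0.0272).

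Both male calls lay near the threshold. Ltbp3 lost its call without Ctrl male 5 (edgeR adjusted p = 0.0967) or without cKO male 2 (0.0539), 5 (0.0522) or 6 (0.0587), and its log2 fold change stayed between 0.24 and 0.32 over all single omissions. Ltbp4 lost its call without Ctrl male 2 (edgeR adjusted p = 0.0502) or 5 (0.0991), or without cKO male 1 (0.0568), 2 (0.0539), 5 (0.0522) or 6 (0.0587), with a log2 fold change between 0.36 and 0.42. Without Ctrl males 3 and 6 together, an omission chosen after seeing the data, the log2 fold changes were 0.27 for Ltbp3 (edgeR adjusted p = 0.0627) and 0.43 for Ltbp4 (edgeR adjusted p = 0.0545). With an offset for transcript length and GC content they were 0.22 (edgeR adjusted p = 0.0781) and 0.32 (edgeR adjusted p = 0.103).

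**Figure D2:**
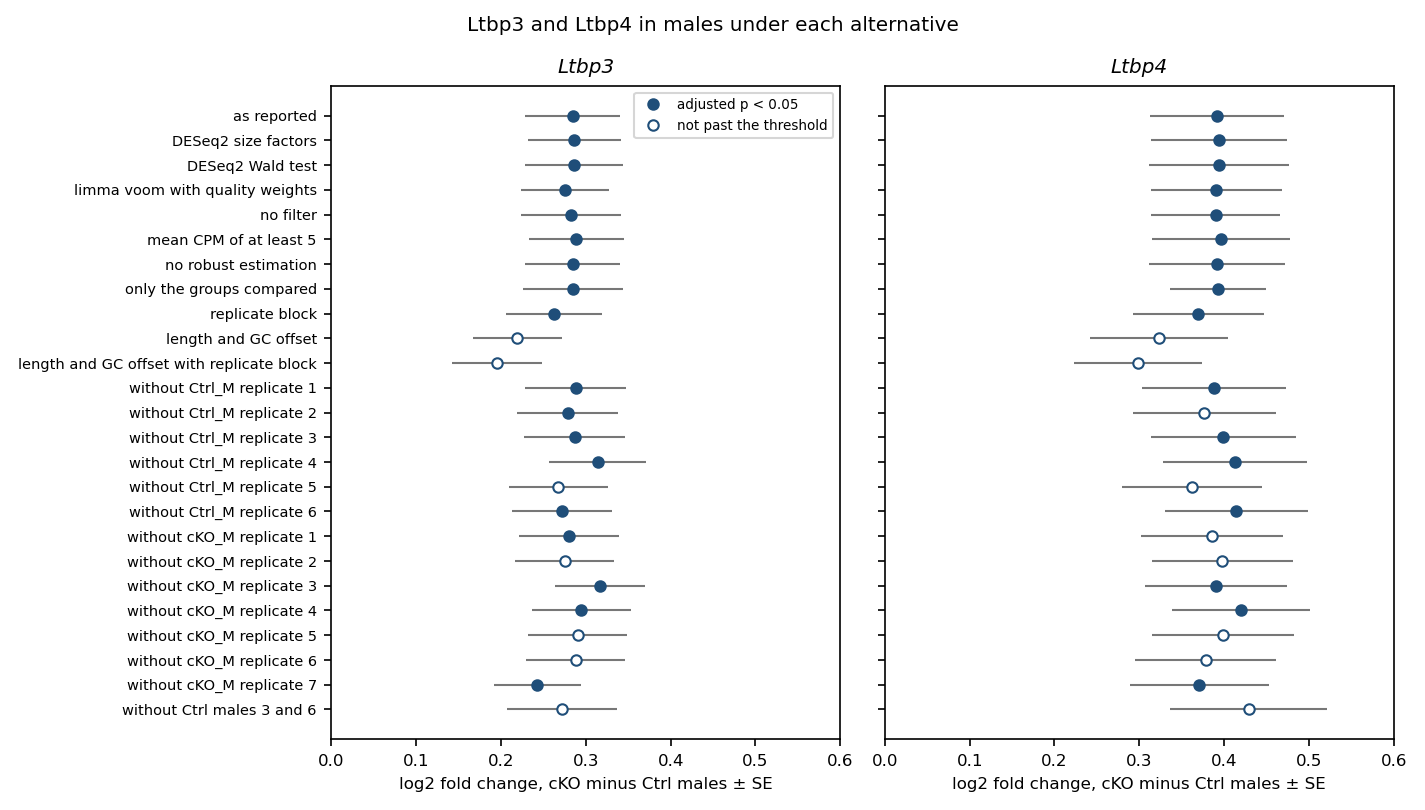
Log2 fold change of Ltbp3 and Ltbp4 in males (cKO minus Ctrl) ± SE under each setting, with filled points where the adjusted p was under 0.05. All values are positive, between 0.20 and 0.32 for Ltbp3 and between 0.30 and 0.43 for Ltbp4, and the call changes with single mice and with the length and GC offset.

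Transcript length moved with the male contrast. Across 15092 genes the male log2 fold change had a Spearman rho of 0.254 with transcript length and -0.025 with GC content, as a description across genes that are not independent. Ltbp3 lay at percentile 85 of length and 91.7 of GC content, and Ltbp4 at 82.4 and 98.5. The part of length in the male calls was not tested beyond the offset above.

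Ltbp2, which encodes a microfibril protein, had the largest male difference of the 10 genes and also the widest spread. Ctrl males ranged from 1.49 CPM through a median of 4.84 to 7.46, and cKO males from 3.53 through a median of 10.9 to 14.4. The groups overlapped, with cKO males 3, 4 and 5 at or below 6.55 CPM and Ctrl male 3 at 7.46. The change on the log2 scale was 0.99 (SE 0.31, 95% interval 0.365 to 1.625), which did not pass over all genes (edgeR adjusted p = 0.124). Ltbp1, a carrier of all TGF-β isoforms, averaged 53.3 ± 5.48 CPM (SD, n = 6) in the male controls and 54.4 ± 5.47 (SD, n = 7) in the male knockouts, a log2 change of 0.03 (SE 0.09, edgeR adjusted p = 0.925).

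The ligand genes did not pass in males. Tgfb1, the main isoform of injury and fibrosis, had a log2 change of -0.11 (SE 0.10, edgeR adjusted p = 0.722), and all 7 cKO males lay below the Ctrl mean of 30.8 CPM. Tgfb2, which relies on betaglycan to reach its receptor, had 0.18 (SE 0.13, edgeR adjusted p = 0.578), with Ctrl males between 7.93 and 11.2 CPM and cKO males between 7.81 and 13.9. Tgfb3, the third isoform, had 0.08 (SE 0.08, edgeR adjusted p = 0.728).

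The receptor genes were also not called. Tgfbr1 averaged 15.3 ± 1.5 CPM (SD, n = 6) in male controls and 17.4 ± 1.1 (SD, n = 7) in male knockouts, a log2 change of 0.19 (SE 0.09, edgeR adjusted p = 0.35). Tgfbr3 averaged 38.1 ± 4.86 CPM (SD, n = 6) and 43.8 ± 3.93 (SD, n = 7), with 0.20 (SE 0.09, edgeR adjusted p = 0.33). Tgfbr2 was at 49.5 ± 4.22 CPM (SD, n = 6) and 51.8 ± 6.86 (SD, n = 7), with 0.06 (SE 0.09, edgeR adjusted p = 0.81). Ctrl and cKO males overlapped for each of the 3 receptors.

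**Figure D3:**
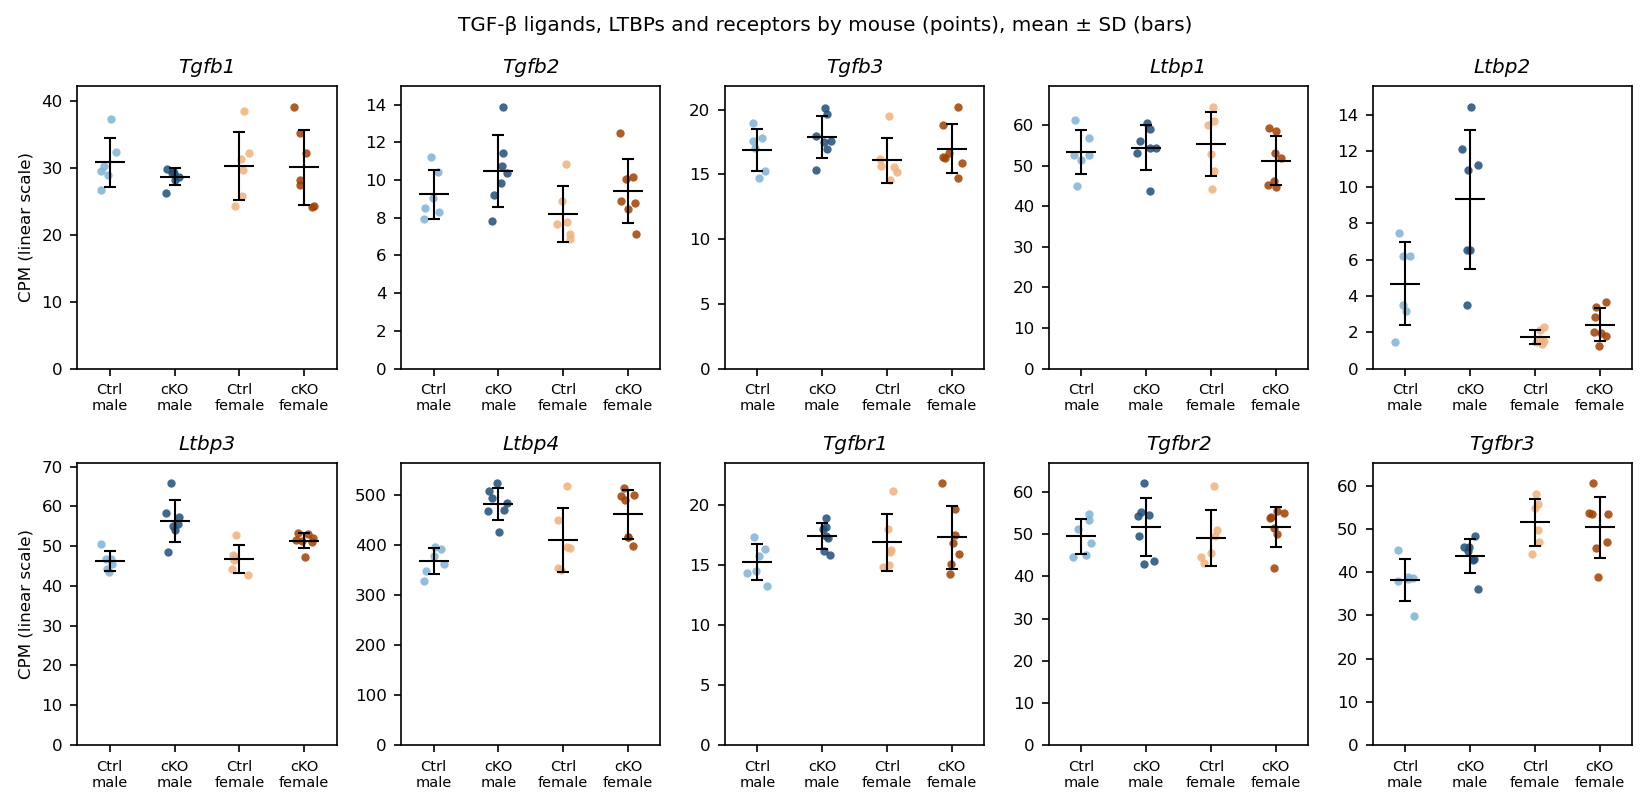
CPM of each of the 10 genes in every mouse (points) with the mean ± SD (bars) in the 4 groups, on linear axes from 0. Ltbp4 separates cKO males (426.0 to 522.7) from Ctrl males (328.7 to 395.4), and Ltbp2 reaches 14.4 in cKO males while no female exceeds 3.69.

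In females 0 of the 10 genes were called by edgeR, DESeq2 or limma voom, against 0.0326% of all genes by edgeR, and 2 of 10 had an unadjusted p under 0.05 against 5.15% of all genes. Those 2 were Ltbp3 and Ltbp4. Ltbp3 in Ctrl females ranged from 42.8 CPM through a median of 46.8 to 52.9, and in cKO females from 47.4 through 51.6 to 53.2. The ranges overlapped, though 7 of 7 cKO females lay above the Ctrl mean. The change on the log2 scale was 0.13 (SE 0.06, edgeR adjusted p = 0.932).

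Ltbp4 in Ctrl females ranged from 350.6 CPM through a median of 394.2 to 518.2, and in cKO females from 396.8 through 490.4 to 512.8. The highest mouse was a Ctrl female, and 6 of 7 cKO females lay above the Ctrl mean. The change on the log2 scale was 0.17 (SE 0.08, edgeR adjusted p = 0.948). Ltbp2 was low in both groups, with 1.33 to 2.29 CPM in Ctrl and 1.24 to 3.69 in cKO females, and a log2 change of 0.53 (SE 0.37). The other 7 genes had log2 fold changes between -0.11 (Ltbp1) and 0.21 (Tgfb2), with the receptors at 0.03 (Tgfbr1), 0.07 (Tgfbr2) and -0.03 (Tgfbr3).

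Averaged over the sexes, Ltbp3 and Ltbp4 were higher in cKO mice, so 2 of the 10 genes were called higher and 0 lower, against 0.469% and 0.866% of all genes. The mean log2 fold change was 0.21 for Ltbp3 (SE 0.04, 95% interval 0.129 to 0.29, edgeR adjusted p = 0.00965) and 0.28 for Ltbp4 (SE 0.06, 95% interval 0.166 to 0.395, edgeR adjusted p = 0.0123). Both calls held in every omission of a single mouse. With the length and GC offset Ltbp3 stayed called and Ltbp4 did not (0.22, edgeR adjusted p = 0.0604), and with the replicate block added to the offset Ltbp3 was at 0.14 (edgeR adjusted p = 0.0991). Ltbp2 had a mean change of 0.76 (SE 0.24, edgeR adjusted p = 0.111), which passed with the DESeq2 Wald test (0.75, DESeq2 adjusted p = 0.023) and without Ctrl males 3 and 6 (0.94, edgeR adjusted p = 0.0499). The means of the remaining 7 genes lay between -0.06 (Tgfb1) and 0.19 (Tgfb2) and were not called.

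The genotype effects of the sexes were compared directly. With edgeR 0 of the 10 genes differed, and 0% of all genes, while 0 of the 10 and 3.96% of all genes had an unadjusted p under 0.05. DESeq2 and limma voom also called 0 of the 10. For Ltbp4 the female effect minus the male one was -0.22 on the log2 scale (SE 0.11, 95% interval -0.451 to 0.006, edgeR adjusted p = 0.999). For Ltbp3 it was -0.15 (95% interval -0.311 to 0.011) and for Ltbp2 -0.47 (95% interval -1.453 to 0.516). A difference between the sexes in the genotype effect was therefore not shown for any of the 10 genes.

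**Figure D4:**
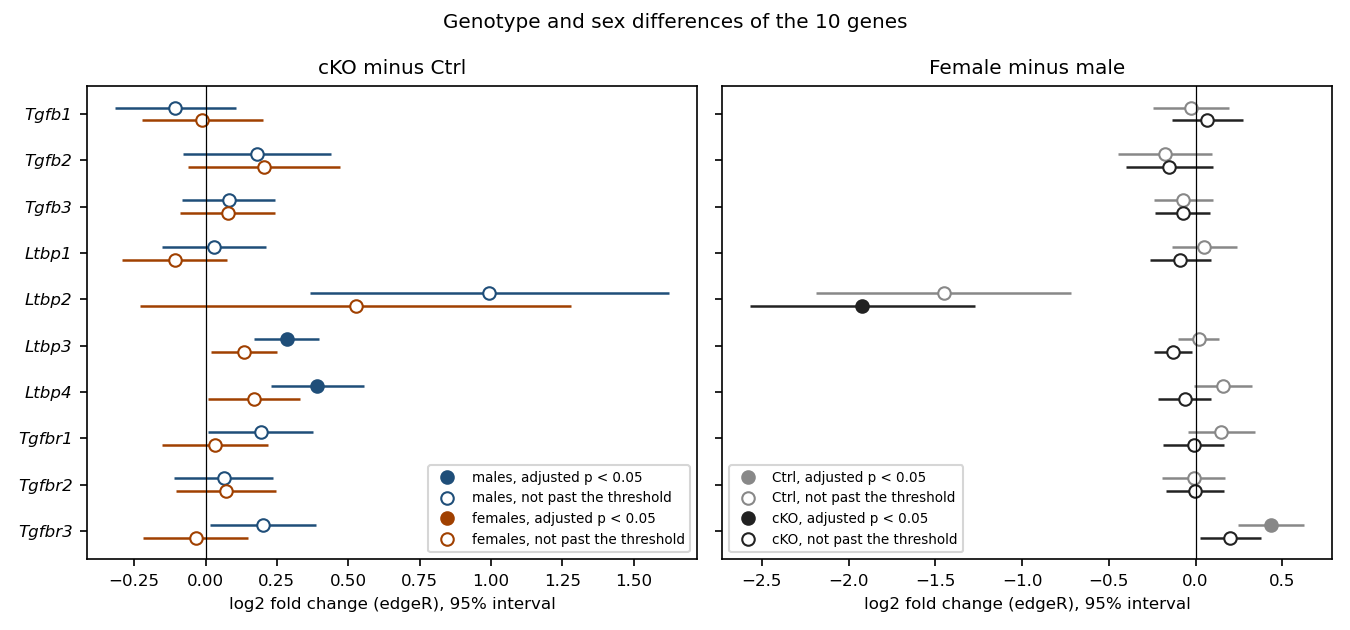
Log2 fold changes of the 10 genes with 95% intervals, for the genotype effect (cKO minus Ctrl) in males and females and for the sex difference (female minus male) in Ctrl and cKO mice. Ltbp3 and Ltbp4 are the genes called for genotype in males, Tgfbr3 is called between the sexes in Ctrl mice and Ltbp2 in cKO mice.

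Sex differences fell on a receptor and on an LTBP. In Ctrl mice Tgfbr3, encoding betaglycan, was higher in females, so 1 of the 10 genes was called higher and 0 lower, against 0.287% and 0.352% of all genes. Ctrl males ranged from 29.8 CPM through a median of 38.5 to 44.99, and Ctrl females from 44.2 through 52.2 to 58.0. The groups met at their edges, where Ctrl male 1 (44.99 CPM) lay above Ctrl female 2 (44.2). The log2 difference, female minus male, was 0.44 (SE 0.09, edgeR adjusted p = 0.0219), and all 6 females were above the male mean.

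The call for Tgfbr3 was lost without Ctrl male 2 (edgeR adjusted p = 0.0531) or 3 (0.0631), or without Ctrl female 4 (0.0645) or 6 (0.0587), and without Ctrl males 3 and 6 together the log2 difference was 0.36 (edgeR adjusted p = 0.137). In cKO mice the difference was 0.20 (SE 0.09, edgeR adjusted p = 0.221), with males between 36.0 and 48.4 CPM and females between 38.9 and 60.5. Whether it differed between the genotypes is the same test as the interaction, which gave -0.235 (SE 0.13, edgeR adjusted p = 0.999).

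Ltbp2, the microfibril gene, was lower in females among the cKO mice. There the log2 difference, female minus male, was -1.92 (SE 0.31, 95% interval -2.569 to -1.272, edgeR adjusted p = 0.00135), so 1 of the 10 genes was called lower in females and 0 higher, against 1.27% and 1.43% of all genes. All 7 cKO females were below the male mean of 9.33 CPM. The groups overlapped by a pair of mice, cKO male 3 at 3.53 CPM and cKO female 1 at 3.69. This call held in all 24 alternatives that gave a value, with an edgeR, DESeq2 or voom adjusted p of at most 0.0102.

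In Ctrl mice Ltbp2 had a log2 difference of -1.45 (SE 0.36, 95% interval -2.186 to -0.718, edgeR adjusted p = 0.0556), close to the threshold. It passed with DESeq2 (DESeq2 adjusted p = 0.00243) and without Ctrl male 1 (-1.64, edgeR adjusted p = 0.0108), the male with the lowest value at 1.49 CPM. It also passed with the offset (-1.501, edgeR adjusted p = 0.0437) and without robust estimation (edgeR adjusted p = 0.0388), so 4 of 23 alternatives called it. With limma voom the difference was -1.27 (voom adjusted p = 0.222), and without Ctrl males 3 and 6 it was -1.09 (edgeR adjusted p = 0.311). Ltbp2 rested on 20 to 372 counts per library, the fewest of the 10 genes. Its exons overlap D030025P21Rik on the opposite strand over 764 bases (9.34%) in GENCODE M21, and that gene was at most at 0.0476 CPM in any mouse.

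Apart from genotype and sex, some pairs of the 10 genes varied together between mice. Deviations from the group means were correlated over the 26 mice for all 45 pairs, of which 7 passed by Pearson r after Benjamini-Hochberg adjustment, 5 positive and 2 negative (permutation tests, two-sided). Of the 45 pairs, 25 had a positive r. The share of pairs passing among other genes was not computed, so these counts do not set the 10 genes apart. The type II receptor and the ligand Tgfb2 gave the strongest pair, Tgfb2 with Tgfbr2, at r = 0.661 (permutation p = 0.00088, adjusted 0.0396) and rho = 0.649 (permutation p = 0.00104, adjusted 0.0468), with r = 0.773 without the 2 mice farthest from the median of Tgfb2. In each pair this distance was taken on the gene that comes first in the opening list of the 10 genes. Tgfb2 with Tgfbr2 was the only pair past the threshold by both measures.

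Tgfb1 varied with Ltbp4 between mice, at r = 0.624 (permutation p = 0.00535, adjusted 0.0426) and rho = 0.631 (permutation p = 0.0049, adjusted 0.0712), and r was 0.613 without the 2 farthest mice. It ran against Tgfbr3, at r = -0.586 (permutation p = 0.00567, adjusted 0.0426) and rho = -0.586 (permutation p = 0.00748, adjusted 0.0712), with r = -0.404 without those mice.

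Ltbp3 took part in 3 of the 7 pairs. With Ltbp2 it had r = 0.538 (permutation p = 0.00663, adjusted 0.0426) and rho = 0.537 (permutation p = 0.00791, adjusted 0.0712), and r = 0.527 without the 2 mice farthest on Ltbp2. With Tgfb2 it had r = 0.565 (permutation p = 0.00602, adjusted 0.0426) and rho = 0.478 (permutation p = 0.0223, adjusted 0.143), and r = 0.478 without the 2 mice farthest on Tgfb2. Against Ltbp1 it had r = -0.555 (permutation p = 0.0059, adjusted 0.0426) and rho = -0.365 (permutation p = 0.0819, adjusted 0.307), but r = -0.303 without the 2 mice farthest on Ltbp1, so this relation rests on those mice. Of the receptors, Tgfbr2 and Tgfbr3 had r = 0.531 (permutation p = 0.00532, adjusted 0.0426) and rho = 0.488 (permutation p = 0.0146, adjusted 0.109), with r = 0.452 without the 2 mice farthest on Tgfbr2.

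**Figure D5:**
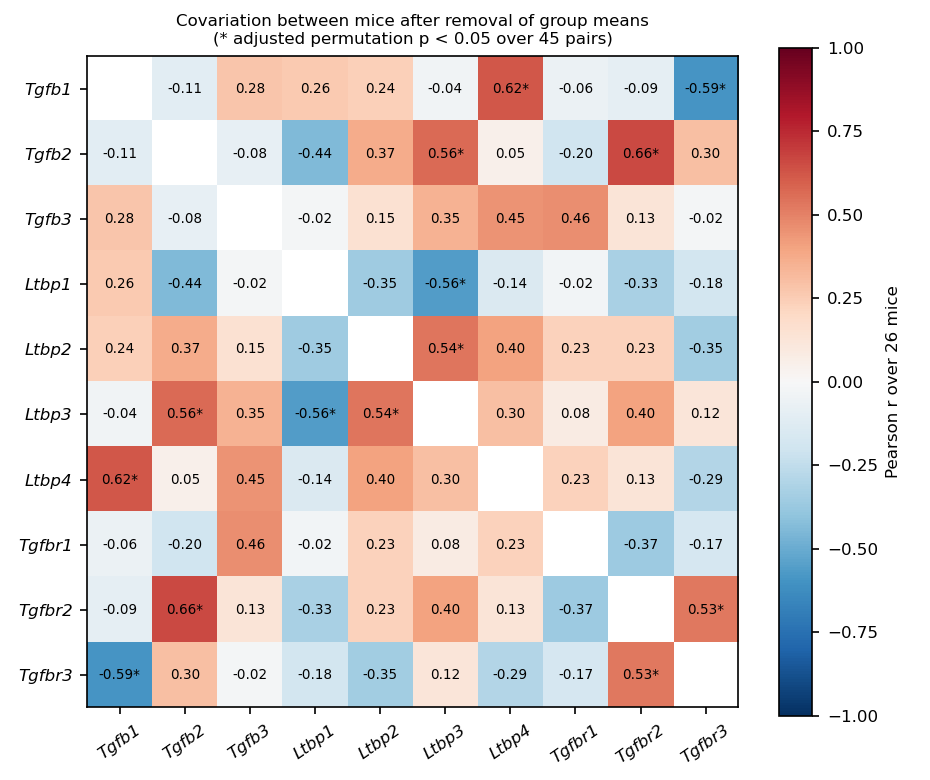
Pearson r between the 10 genes over 26 mice after the group means were removed from log2 CPM. Tgfb2 with Tgfbr2 (0.661) and Tgfb1 with Ltbp4 (0.624) are the highest, and Tgfb1 with Tgfbr3 (-0.586) is the lowest.

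The genes most like each called gene in these deviations are given as a description, over 26 separate libraries that differ in depth. For Ltbp4 they were Adcy7 (r = 0.823), Epb41l2 (0.822) and Fstl1 (0.811). For Ltbp3, Pam (0.723) and Rangap1 (0.713) were among them. For Tgfbr3 they were Cyp4b1 (0.853), Cdk19 (0.827) and Ehmt1 (0.803), and for Ltbp2 they were Olfml3 (0.776), Mfap4 (0.751) and Itgbl1 (0.738).

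Further genes of the pathway were read from 4 lists. Of 16 genes for latency and activation, 1 was called higher in cKO males and 0 lower, against 0.182% and 0.26% of all genes. It was Itgav, the αv integrin that frees TGF-β, at 0.30 (SE 0.07, edgeR adjusted p = 0.0486), followed by Bmp1, a protease that cuts LTBPs and procollagen, at 0.16 (edgeR adjusted p = 0.153). The median log2 change of the list was 0.147.

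Of 12 matrix partners of LTBPs and binders of TGF-β, 0 were called in males by edgeR, 4 by DESeq2 and 2 by limma voom, and 6 had an unadjusted p under 0.05. Of all 15357 genes tested, edgeR called 68 in males, DESeq2 386 and limma voom 211. At an unadjusted p under 0.05 there were 2027 of all genes, 938 of these higher. All 12 log2 fold changes of the matrix list were positive, with a median of 0.409. Bgn (biglycan, 0.47, edgeR adjusted p = 0.0505) and Aspn (asporin, 0.51, edgeR adjusted p = 0.0953), small proteoglycans that bind TGF-β, had the smallest p. Of 18 receptor partners and SMAD genes, 0 were called by edgeR, DESeq2 or limma voom and 4 had an unadjusted p under 0.05, with a median of 0.058. Pmepa1 (0.27, edgeR adjusted p = 0.14) and Ski (0.19, edgeR adjusted p = 0.151), both known as brakes on SMAD signalling, led that list.

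Of 16 target genes 15 were tested (not Il11), with a median in males of 0.494 and 14 of 15 positive. In males 1 was called higher and 0 lower, against 0.182% and 0.26% of all genes. It was Fn1 (fibronectin, 0.53, SE 0.12, edgeR adjusted p = 0.0397), whose mean went from 38.4 ± 4.64 CPM (SD, n = 6) to 55.4 ± 8.21 (SD, n = 7). Comp, a cartilage and tendon matrix protein, followed at 1.24 (edgeR adjusted p = 0.0505). With the length and GC offset, and without Ctrl males 3 and 6, 0 genes of the 4 lists were called in males.

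In females 0 genes of the 4 lists were called by edgeR, DESeq2 or limma voom. In the order above, 3 of 16, 1 of 12, 1 of 18 and 1 of 15 genes had an unadjusted p under 0.05. Of all genes 5.15% did. Only 1 of the 3 in the first list was higher, while the 1 in each other list was higher. The list medians were 0.091, 0.099, 0.019 and 0.105 beside 0.003 over all genes. Averaged over the sexes, Bmp1 (0.16, edgeR adjusted p = 0.0308), Bgn (0.30, 0.0471), Fbln1 (fibulin-1, a matrix protein, 0.29, 0.0159), Fn1 (0.35, 0.0313) and Comp (0.98, 0.0168) were higher in cKO mice and 0 listed genes were lower. By list, in the same order, these were 1 of 16, 2 of 12, 0 of 18 and 2 of 15 genes. Of all genes 0.469% were called higher and 0.866% lower. With the length and GC offset Fbln1 and Comp stayed called and Bmp1, Bgn and Fn1 did not, and Bgn also lost its call without the females numbered 2. In Ctrl mice Furin, the protease that cuts the TGF-β precursor, was higher in females (0.28, edgeR adjusted p = 0.0217), as was Adamtsl2, which binds LTBP-1 and fibrillin (1.04, 0.0245). By list these were 1 of 16, 1 of 12, 0 of 18 and 0 of 15 genes, with 0 lower, against 0.287% of all genes higher and 0.352% lower. The calls of Furin and Adamtsl2 were lost without Ctrl males 3 and 6, and that of Adamtsl2 also without the females numbered 2. In cKO mice 1.27% of all genes were called lower in females and 1.43% higher. Of the listed genes 0 were higher and 6 lower, by list 1 of 16, 0 of 12, 2 of 18 and 3 of 15. These were the microfibril gene Fbn1 (-0.55, edgeR adjusted p = 0.0326), the SMAD regulators Smurf1 (-0.20, 0.0334) and Ppm1a (-0.18, 0.0352), and the targets Col1a2 (-0.40, 0.0307), Lox (-0.74, 0.0335) and Cdkn2b (-1.16, 0.0444). Without the female mice numbered 2, an omission chosen after seeing the data, 0 of these 6 were called. Omissions of other single mice were not run for the listed genes.

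Bulk tissue gives 1 value over all cells of the ventricle, so fewer cells of a type and less RNA per cell cannot be told apart. Beside the rise of Ltbp3 and Ltbp4 in males, 2 of 8 cardiomyocyte markers were called lower in cKO males, Tnni3 (-0.24, edgeR adjusted p = 0.0316) and Myl3 (-0.20, edgeR adjusted p = 0.0374), against 0.26% of all genes. DESeq2 called 2 of the 8 lower and limma voom 3. With the length and GC offset only Tnni3 stayed called, and without Ctrl males 3 and 6 together 0 of the 8 were called. The 8 summed to 68100 to 76100 CPM in Ctrl males and 59800 to 71000 CPM in cKO males. Of 8 fibroblast markers 0 were called in males by edgeR and 0 had an unadjusted p under 0.05, with a median log2 change of 0.068 and sums of 1890 to 2590 CPM in Ctrl and 2140 to 2510 CPM in cKO males. The endothelial (-0.104), smooth muscle and pericyte (-0.027) and macrophage (0.026) lists had 0 of 8 genes called in males each, and 0 with an unadjusted p under 0.05. The small lists for mesothelial, atrial, Schwann, adipocyte, lymphocyte and erythroid genes had 0 called by edgeR and 0 with an unadjusted p under 0.05. In that order 1 of 4, 1 of 3, 3 of 4, 3 of 4, 1 of 4 and 5 of 5 were tested. A list with 1 gene tested says little about its cell type. DESeq2 and limma voom also called 0 markers in males outside the cardiomyocyte list. For the mean effect, where Ltbp3 and Ltbp4 were also called, all 8 cardiomyocyte markers had negative changes (median -0.124), with Tnni3 (-0.17, edgeR adjusted p = 0.0168) and Myl3 (-0.17, edgeR adjusted p = 0.00965) called lower, against 0.866% of all genes. All 8 fibroblast markers had positive ones there (median 0.101), with 0 called by edgeR, DESeq2 or limma voom and 1 at an unadjusted p under 0.05. The part of cell composition in the differences of the 10 genes was not tested.

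Between the sexes the fibroblast sums overlapped, at 2140 to 2510 CPM in cKO males and 2100 to 2940 CPM in cKO females, where Ltbp2 was lower. Such a sum rests mainly on the most abundant markers, since their highest counts in a library ranged from 309 to 48880. The median log2 difference of the 8 fibroblast markers in cKO mice was 0.079, with 5 positive and 3 negative. The 8 macrophage markers were all lower in females without a call, with median log2 differences of -0.231 in Ctrl and -0.199 in cKO mice. The 3 adipocyte markers tested were higher in females without a call, with medians of 1.304 in Ctrl mice, where Tgfbr3 was higher, and 0.753 in cKO mice, and 1 of them had an unadjusted p under 0.05 in each genotype. These 3 genes lay near the floor, with at most 39 counts in any library. Their Ctrl median was 0.804 without Ctrl males 3 and 6, 0.894 without the females numbered 2 and 1.706 with limma voom. The part of the macrophage and adipocyte markers in the sex differences was not tested. In cKO mice 2 of 8 cardiomyocyte markers, Tnni3 and Myl2, were called higher in females, against 1.43% of all genes, and 0 fibroblast or endothelial markers were.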

How the data were processed

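Per the labels' protocols, about 20 mg of left ventricle gave RNA with integrity numbers from 7.7 up, and 500 ng of it went into each stranded poly-A library. The authors deposited 1 matrix of whole-number counts per gene, without normalization. FastQC 0.74, cutadapt 4.6, STAR 2.7.11a, HTSeq and the GRCm39 build are named in the submitters' processing notes. The annotation release and the strand setting are not given in the sources used here, so reads of overlapping genes may be shared.

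Mice were grouped by genotype and sex from the labels, which list numbered samples of each group without naming animals, so p-values measure the spread between these samples. The chi-square per degree of freedom between libraries of a group was 7.19 to 33.4 over 72 pairs, so all 26 libraries were kept as separate samples. In R 4.3.3 with edgeR 4.0.16, genes passed filterByExpr (minimum count 10), libraries were scaled by TMM, and 1 robust quasi-likelihood fit with 4 group means covered 26 mice. P-values of 6 contrasts were adjusted by Benjamini-Hochberg over 15357 genes and called under 0.05. CPM used TMM-scaled totals, and log2 CPM for covariation a prior count of 2. Covariation used 100000 permutations within groups in scipy 1.17.1 and numpy 2.4.6 (Python 3.11.15). Lengths and GC content came from GENCODE M21, which is not the authors' build. DESeq2 1.42.0, limma 3.58.1 voom, other filters, a replicate block, a spline offset for length and GC content (4 degrees of freedom) and omissions of mice were alternatives.

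The 10 genes and the lists were chosen with earlier results of these data known. Genes named are the 10, Ppp2r2a, listed genes called in any contrast, the 2 of smallest p per pathway list in males, and the 3 most alike in covariation for each called gene. A gene that this rule selects is not reported here. On simulated data (15107 genes, male contrast) edgeR recovered 13.4% of log2 changes of 0.25, 56.9% of 0.5 and 86.2% of 1, with 6 false among 100 calls, and DESeq2 made 15 false among 120. With a simulated length trend (15113 genes) edgeR made 301 false among 404 calls without the offset and 3 among 93 with it. That trend (Spearman rho 0.545 with length) was stronger than the 0.254 in the real male contrast. The marker lists covered cardiomyocytes, fibroblasts, endothelium, smooth muscle and pericytes, macrophages, mesothelium, atrium, Schwann cells, adipocytes, lymphocytes and erythroid cells.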

Additional observations from a re-analysis of the deposited data

Results flagged for a closer look

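A search of 44 groups of values (each of the 10 genes and Ppp2r2a in each of the 4 groups) for a mouse far from the rest of its group found 3, where chance alone gives about 1 in 20. Tgfb3 in Ctrl female 6 was at 19.5 CPM, above the 14.6 to 16.2 CPM of the other Ctrl females. Ltbp3 in cKO female 2 was at 47.38 CPM, below the 51.1 to 53.2 CPM of the other cKO females. Tgfbr2 in the same mouse was at 41.92 CPM, below the 49.9 to 55.5 CPM of the others. The cause was not tested.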

How the results depend on the processing

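The number of genes called in males was 386 with DESeq2, 211 with limma voom, 31 without a filter, 164 at a mean CPM of at least 5, 14 with the length and GC offset, 15 with that offset and the replicate block, 7 without Ctrl males 3 and 6, and 4 to 79 when single mice were left out, the lowest without Ctrl male 5. In females it was 9 with DESeq2, 2 at a mean CPM of at least 5, 1 with only the groups compared, 3 with the replicate block with or without the offset, and 3 to 7 over single omissions. For the mean effect it was 525 with DESeq2, 325 with voom, 113 without a filter, 88 with the offset, 59 with offset and block, and 96 to 349 over omissions. For the sex difference it was, in Ctrl mice, 253 with DESeq2, 61 with only the groups compared, 40 without Ctrl males 3 and 6, and 54 to 114 over omissions, and in cKO mice 708 with DESeq2, 688 with voom, 244 without a filter, 267 with offset and block, and 163 to 548 over omissions. The cause was not tested. Omissions of Ctrl males 3 and 6 and of the females numbered 2, and the longest transcript as length, were chosen after seeing the data.

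Values of the 10 genes were recomputed 1704 times over 60 results. Direction and side of the threshold were kept in 1592, 24 lost a call, 6 gained one and 82 changed sign, 64 of these when a single mouse was left out. Every sign change was in a result without a call. With the offset, log2 values were -0.0303 for Ltbp1 in males, -0.0238 for Ltbp3 between Ctrl sexes, and 0.05 and 0.0297 for Tgfbr1 and Tgfbr2 between cKO sexes. With offset and block they were -0.0148 for Tgfbr2 in males, -0.0253 for Ltbp3 between Ctrl sexes, and 0.0437 and 0.0288 for Tgfbr1 and Tgfbr2 between cKO sexes. With voom they were -0.0042 for Ltbp1 between Ctrl sexes, and -0.0002 and 0.0173 for Tgfb1 and Tgfbr2 between cKO sexes. At a mean CPM of at least 5 Tgfbr2 was at 0.0029 there, and Ltbp2 gave no value. Without Ctrl males 3 and 6 the interaction of Tgfb3 was 0.0292. Without the females numbered 2, Tgfbr1 in females was -0.0401, Tgfbr2 between Ctrl sexes 0.0097, and Tgfb1 and Tgfbr2 between cKO sexes -0.0048 and 0.0423.

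Ranges over single omissions that crossed 0 were, for the interaction, -0.0318 to 0.0804 for Tgfbr2, -0.0474 to 0.0566 for Tgfb3 and -0.0513 to 0.1197 for Tgfb2. In males Ltbp1 ranged from -0.0138 to 0.077. In females they were -0.0818 to 0.0688 for Tgfb1, -0.0272 to 0.107 for Tgfbr1 and -0.0831 to 0.0181 for Tgfbr3. Between Ctrl sexes they were -0.0829 to 0.024 for Tgfbr2, -0.1087 to 0.0354 for Tgfb1 and -0.0207 to 0.0458 for Ltbp3, and between cKO sexes -0.0427 to 0.0466 for Tgfbr2, -0.0723 to 0.031 for Tgfbr1 and -0.0048 to 0.1147 for Tgfb1.

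Replicate numbers name different mice. Same-numbered mice had a mean correlation of deviations of -0.026 in males (-0.163 to 0.088) and 0.118 in females (-0.097 to 0.404). Mice of different numbers averaged 0.004 in males and -0.019 in females. Not every same-numbered pair exceeded 0.1, so the numbers were not taken as pairs. Of the same-numbered pairs 1 in males and 2 in females correlated best with their own number. With the replicate block Ltbp3 (0.26, edgeR adjusted p = 0.0408) and Ltbp4 (0.37, edgeR adjusted p = 0.0365) stayed called in males, Ltbp1 had a mean effect of 0.0001, and the block without the offset changed no call of the 10 genes. Ltbp2 had the fewest counts, 20 to 372 per library.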
